A study of Arabidopsis thaliana with 12 samples.

Results

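The JAZ proteins (JASMONATE ZIM-DOMAIN) are the repressors of the jasmonate pathway in Arabidopsis thaliana. The 10 genes JAZ1 to JAZ10 were taken by their locus identifiers and followed through all libraries, 10 of 37898 nuclear genes in the count tables. Polyadenylated RNA was sequenced from whole seedlings 12 days old, grown on sucrose-containing medium in long days. The 4 groups were wild-type Col-0 at 0 h without treatment, Col-0 at 4 h after a spray with 10 µM abscisic acid (ABA) in water, RNAi-MARS at 0 h without treatment, and RNAi-MARS at 4 h after the same spray. In RNAi-MARS, MARS (AT5G00580), a long non-coding RNA, is targeted by RNA interference. The series' text names 1 line, RNAI-MARS-1, and the promoter of the construct was not given in the sources used here. Each group had 3 libraries, called A, B and C in the labels, which do not say that these came from separately grown cultures. The p-values therefore rest on a spread between libraries that could be technical.

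No group was sprayed without ABA, so hormone, spraying and time of day cannot be told apart in a change from 0 h to 4 h. In whole seedlings, a different share of a cell type and a different RNA level per cell cannot be told apart either. Total counts were between 19020202 and 38787804 per library. MARS itself averaged 3.19 CPM (counts scaled to a common library size) in Col-0 and 0.173 CPM in RNAi-MARS at 0 h, and 16.8 and 2.58 CPM at 4 h. Libraries A, B and C of Col-0 at 0 h were widely spread, at 6.63, 2.60 and 0.34 CPM. Library C was thus close to the RNAi-MARS libraries at 0 h, which lay at 0.16 to 0.20 CPM. At each time all RNAi-MARS libraries lay below all Col-0 libraries, but MARS was not called at either time (edgeR adjusted p = 0.996 and 0.477). Leaf photosynthesis markers (8 genes) summed to between 30680 and 68160 CPM per library and root markers (10 genes) to between 1982 and 2885 CPM, so both organs were present in every library. Leaf markers were lower at 4 h, summing to 54230 to 68160 CPM in Col-0 and 58220 to 61880 CPM in RNAi-MARS at 0 h, and to 43440 to 46660 CPM and 30680 to 44800 CPM at 4 h. RCA (log2 fold change -1.39 and -1.77), GAPB (-1.17 and -1.43), RBCS1A (-0.70 and -0.84) and LHCB3 (-0.48 and -0.69), 4 of 8, fell in both genotypes. Over all features, 19.3% fell in Col-0 and 21.0% in RNAi-MARS. Of the root markers, SCR fell in both (-0.55 and -0.54) and SHR in Col-0 (-0.36), while their summed ranges at 0 h and 4 h overlapped. The part of these marker changes in the JAZ changes was not tested. Of 7 ABA response markers, 6 rose by 4 h in Col-0 (20.7% of all features), and all 7 did in RNAi-MARS (21.6%).

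A JAZ protein binds transcription factors such as MYC2 and recruits the co-repressors NINJA and TOPLESS, which keeps jasmonate target genes off. The hormone jasmonoyl-isoleucine joins the JAZ protein to the receptor COI1, part of a ubiquitin ligase, and the JAZ protein is then degraded. Many JAZ genes are themselves targets of MYC factors, which gives the pathway a negative feedback that is known from wounding and from herbivore and pathogen attack.

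The G-box CACGTG is the element that MYC2 binds, and G-box-like elements with an ACGT core are also known from ABA-responsive promoters. The 300 bases before the annotated start of JAZ2 to JAZ10 were searched on both strands, in RefSeq's sequence of build TAIR10.1, the same window being read from 27442 protein-coding genes. A G-box was found in 4 of these 9 members (JAZ2, JAZ3, JAZ7 and JAZ8) and in 7.09% of all promoters. The G-box variant AACGTG was found in 3 members (JAZ3, JAZ5 and JAZ6) and in 8.71% of all promoters. The ABA-responsive forms ACGTGGC and ACGTGTC, which share the ACGTG core with those motifs, were in none of the 9 and in 3.72% and 4.05% of all promoters. The evening element AAAATATCT, known from clock-controlled genes, was in JAZ10 and in 2.79% of all promoters. A match is a run of letters and not a measured binding site. The promoters below are those of the 4 members with a G-box and of JAZ10 with the evening element. They are written 5′ to 3′ on the gene's own strand, and capitals mark the motif matches.
JAZ2 promoter, chr1:28150447-28150746, minus strand: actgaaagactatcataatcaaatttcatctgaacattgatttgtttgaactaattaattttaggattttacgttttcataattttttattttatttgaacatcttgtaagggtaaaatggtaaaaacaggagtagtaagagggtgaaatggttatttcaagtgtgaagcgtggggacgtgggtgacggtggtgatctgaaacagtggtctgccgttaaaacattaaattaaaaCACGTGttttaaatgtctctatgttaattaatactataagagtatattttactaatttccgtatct
JAZ3 promoter, chr3:6119407-6119706, plus strand: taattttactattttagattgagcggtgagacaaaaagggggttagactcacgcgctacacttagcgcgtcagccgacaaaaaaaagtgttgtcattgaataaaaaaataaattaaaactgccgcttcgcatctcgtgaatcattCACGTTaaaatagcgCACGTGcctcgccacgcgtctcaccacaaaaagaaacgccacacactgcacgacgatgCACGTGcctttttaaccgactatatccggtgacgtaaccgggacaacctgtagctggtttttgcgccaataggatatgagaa
JAZ7 promoter, chr2:14572730-14573029, plus strand: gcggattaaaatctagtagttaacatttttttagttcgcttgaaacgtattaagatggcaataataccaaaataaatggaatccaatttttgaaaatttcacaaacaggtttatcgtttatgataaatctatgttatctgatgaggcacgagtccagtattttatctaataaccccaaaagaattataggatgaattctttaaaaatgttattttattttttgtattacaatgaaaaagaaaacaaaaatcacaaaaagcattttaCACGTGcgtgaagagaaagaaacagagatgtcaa
JAZ8 promoter, chr1:10596052-10596351, plus strand: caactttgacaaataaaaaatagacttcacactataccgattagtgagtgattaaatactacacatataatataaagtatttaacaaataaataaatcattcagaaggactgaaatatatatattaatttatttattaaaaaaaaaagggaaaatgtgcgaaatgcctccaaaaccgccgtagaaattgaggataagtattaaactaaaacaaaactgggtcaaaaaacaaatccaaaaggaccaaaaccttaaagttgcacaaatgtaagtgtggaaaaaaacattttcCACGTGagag
JAZ10 promoter, chr5:4218486-4218785, plus strand: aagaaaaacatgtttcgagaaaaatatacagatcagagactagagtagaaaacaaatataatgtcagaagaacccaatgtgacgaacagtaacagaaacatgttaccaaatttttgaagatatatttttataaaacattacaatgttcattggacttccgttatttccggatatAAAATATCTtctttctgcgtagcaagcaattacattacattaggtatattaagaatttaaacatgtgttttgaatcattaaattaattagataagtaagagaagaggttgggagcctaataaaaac
The G-box of JAZ2 lay at bases -66 to -61 from the annotated start, that of JAZ7 at -34 to -29 and that of JAZ8 at -10 to -5. JAZ3 held a pair of G-boxes, at -140 to -135 and at -82 to -77, with the variant on the opposite strand at -155 to -150. The evening element of JAZ10 lay at -126 to -118. The matches in JAZ5 and JAZ6, whose sequences are not shown, lay at -218 to -213 and at -127 to -122.

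**Figure D1:**
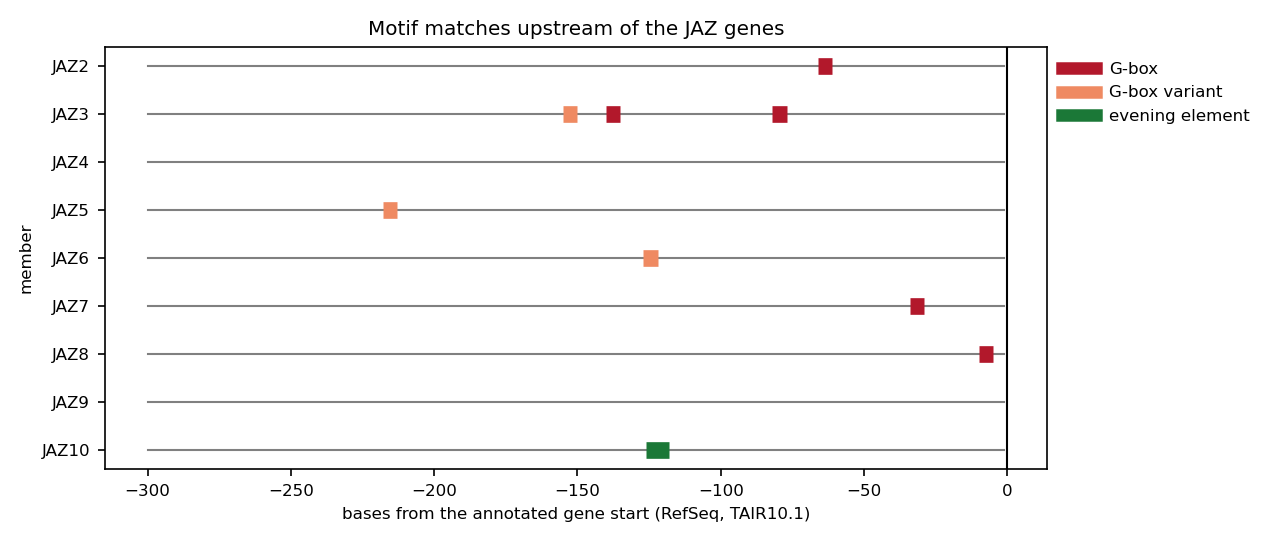
Position of motif matches in the 300 bases before the annotated start of JAZ2 to JAZ10 (horizontal axis, bases from the start, with the gene to the right; 1 line per member). Red marks the G-box in JAZ2, JAZ3, JAZ7 and JAZ8, orange the G-box variant in JAZ3, JAZ5 and JAZ6, and green the evening element in JAZ10; JAZ4 and JAZ9 hold no match.

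Before the spray, JAZ9 had the highest mean level of the members and JAZ8 the lowest in both genotypes. Levels of different genes are compared as CPM per kilobase of exon (CPM per kb). In Col-0 at 0 h, the level of JAZ9 was 45.3 ± 7.12 CPM per kb (SD, n = 3), and JAZ6 (20.8 ± 1.86) and JAZ2 (18.3 ± 1.46) followed, with libraries of the latter pair overlapping. JAZ3 (8.42 ± 0.57 CPM per kb) and JAZ1 (7.64 ± 2.09 CPM per kb) overlapped each other and lay below JAZ2. JAZ7 (1.45 ± 0.17 CPM per kb), JAZ10 (1.31 ± 0.45 CPM per kb) and JAZ4 (1.24 ± 0.62 CPM per kb) could not be ordered beyond their spread. JAZ5 (0.66 ± 0.07 CPM per kb) and JAZ8 (0.18 ± 0.05 CPM per kb) each lay below every library of the member above them. RNAi-MARS at 0 h had the same 5 members on top in the same order, from JAZ9 at 33.8 ± 8.23 to JAZ1 at 8.40 ± 1.596 CPM per kb; JAZ9 and JAZ6 overlapped there, and so did JAZ5 and JAZ8 at the low end.

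At 4 h JAZ1 stood second in both genotypes, at 37.6 ± 14.8 CPM per kb in Col-0 and 49.3 ± 14.6 CPM per kb in RNAi-MARS. In both genotypes JAZ9, JAZ1 and JAZ6 each overlapped the next member in the order, JAZ2 came next, and JAZ3 lay below it without overlap. JAZ1 made up 7.25% of the summed CPM per kb of the 10 members in Col-0 at 0 h and 21.4% at 4 h, and 8.78% and 21.9% in RNAi-MARS (means of 3 libraries). The share of JAZ9 was 43.0% and 32.4% in Col-0 and 35.1% and 31.8% in RNAi-MARS. Summed over the 10 members, the level was 198.3 ± 8.79 CPM in Col-0 and 181.6 ± 34.2 CPM in RNAi-MARS at 0 h, and 321.3 ± 79.2 and 413.8 ± 55.9 CPM at 4 h (SD, n = 3).

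**Figure D2:**
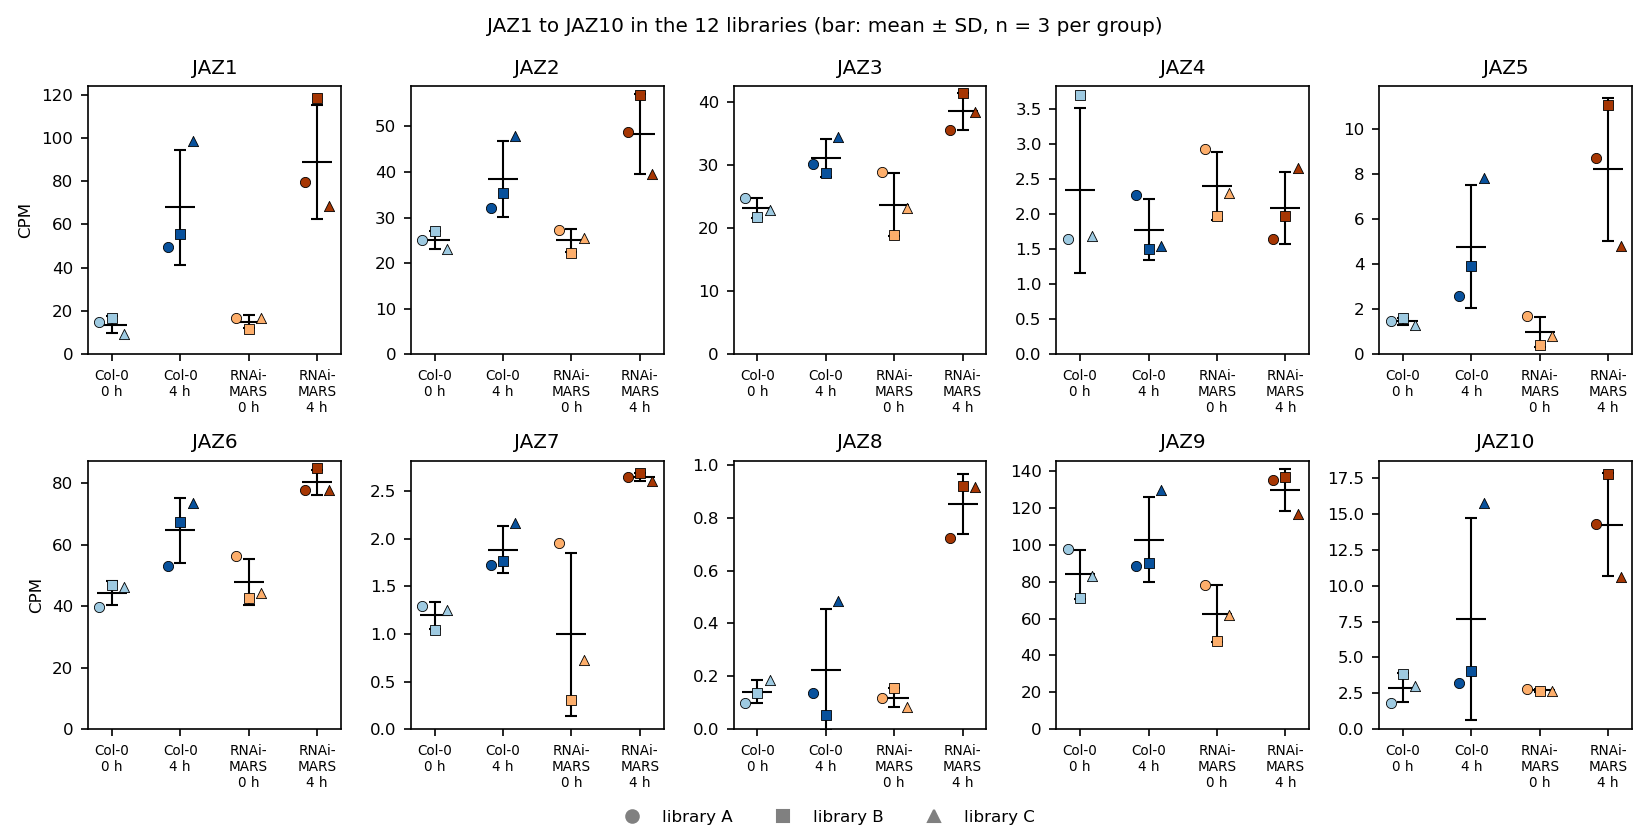
Level of each JAZ gene in CPM (vertical axes, separate linear scales from 0) in the 12 libraries by group, with the symbol giving the library letter and bars the mean ± SD of 3 libraries. JAZ1 is between 49.8 and 118.5 CPM at 4 h and at most 17.0 CPM at 0 h, JAZ4 shows no separation between groups, and library C of Col-0 at 4 h is the highest of its group in 9 of 10 panels.

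Between 0 h and 4 h, 5 of 10 members rose in Col-0 and 9 of 10 rose in RNAi-MARS, and none fell in either. A member was said to rise at a Benjamini-Hochberg adjusted p under 0.05 in the quasi-likelihood F test of edgeR, adjusted over all 22465 features tested. Of all features, 20.7% were called higher and 19.3% lower in Col-0, and 21.6% higher and 21.0% lower in RNAi-MARS. All 4 h libraries were above all 0 h libraries for 6 of 10 members in Col-0 (26.4% of all features) and for 9 of 10 in RNAi-MARS (26.0%). JAZ1, JAZ2, JAZ3, JAZ5 and JAZ6 rose in both genotypes, JAZ7, JAZ8, JAZ9 and JAZ10 passed the threshold in RNAi-MARS alone, and JAZ4 in neither. JAZ8 met the filter on low counts in 3 libraries of RNAi-MARS at 4 h and 1 of Col-0 at 4 h and in none at 0 h, so it was tested only because of the group in which it is high, and its call is no support; of the other 9 members, 8 rose in RNAi-MARS. The median log2 fold change of the members was 0.62 in Col-0 and 1.22 in RNAi-MARS, against -0.0045 and -0.019 over all features tested. JAZ8 is in these medians and among the 9 members without overlap in RNAi-MARS, and is no support there either. With JAZ8 set aside, the middle values were those of JAZ2 in Col-0 (0.61) and JAZ9 in RNAi-MARS (1.05). The comparisons do not show that the responses differ between the genotypes; that difference is tested further below.

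JAZ1, one of the first members described as a substrate of COI1, had the largest rise in Col-0. It is AT1G19180, at chr1:6621777-6623668 on the plus strand, and this and the positions that follow are RefSeq's for TAIR10.1. Its levels in libraries A, B and C of Col-0 were 14.8, 17.0 and 9.63 CPM at 0 h and 49.8, 55.4 and 98.5 CPM at 4 h. In RNAi-MARS they were 16.9, 11.8 and 16.7 CPM at 0 h and 79.8, 118.5 and 68.3 CPM at 4 h. Every 4 h library stood far above every 0 h library, and within each time the genotypes overlapped. The log2 fold change was 2.30 ± 0.32 (SE) in Col-0 (edgeR adjusted p = 0.000334), and RNAi-MARS had 2.55 ± 0.32 (adjusted p = 0.000155), a rise of 4.93-fold and 5.85-fold.

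JAZ5 and JAZ6, close paralogs that repress partly redundantly, started from levels far apart. JAZ5 is AT1G17380 (chr1:5955155-5957511, minus strand) and JAZ6 is AT1G72450 (chr1:27273968-27276562, minus strand). JAZ5 was at 1.495, 1.63 and 1.31 CPM in Col-0 at 0 h and at 2.59, 3.95 and 7.83 CPM at 4 h. In RNAi-MARS it was at 1.72, 0.41 and 0.84 CPM at 0 h and at 8.73, 11.1 and 4.83 CPM at 4 h. The times did not overlap in either genotype, and the 3 libraries of a group lay up to 4.15-fold apart. JAZ5 had a log2 fold change of 1.69 ± 0.50 in Col-0 (edgeR adjusted p = 0.02), against 3.03 ± 0.52 in RNAi-MARS (adjusted p = 0.000881). The latter was 3.65 without library A of RNAi-MARS at 0 h. JAZ6 rose less, from 39.6, 46.7 and 46.2 CPM to 52.9, 67.5 and 73.5 CPM in Col-0, with a log2 fold change of 0.55 ± 0.14 (edgeR adjusted p = 0.00763). In RNAi-MARS JAZ6 rose from 56.2, 42.7 and 44.4 CPM to 77.9, 85.0 and 77.7 CPM, with a log2 fold change of 0.75 ± 0.14 (adjusted p = 0.00105). All 4 h libraries of JAZ6 were above all 0 h libraries of the same genotype.

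JAZ2, known as a regulator of stomatal opening during bacterial infection, rose in both genotypes. JAZ2 is AT1G74950, at chr1:28148574-28150446 on the minus strand. It was at 25.2, 27.1 and 23.1 CPM in Col-0 at 0 h and at 32.2, 35.3 and 47.9 CPM at 4 h. In RNAi-MARS it was at 27.2, 22.3 and 25.6 CPM at 0 h and at 48.7, 57.0 and 39.5 CPM at 4 h. The times were separate in both genotypes, and the log2 fold change was 0.61 ± 0.16 in Col-0 (edgeR adjusted p = 0.0109), against 0.95 ± 0.16 in RNAi-MARS (adjusted p = 0.000738). JAZ3, the gene of the dominant jasmonate-insensitive mutant jai3-1, is AT3G17860 (chr3:6119707-6123044, plus strand). It was at 24.8, 21.7 and 22.9 CPM in Col-0 at 0 h and at 30.2, 28.7 and 34.4 CPM at 4 h. In RNAi-MARS it was at 28.9, 18.9 and 23.3 CPM at 0 h and at 35.6, 41.4 and 38.5 CPM at 4 h. Its rise was the smallest of the called members in both genotypes, with a log2 fold change of 0.43 ± 0.14 (edgeR adjusted p = 0.0262) in Col-0 and 0.70 ± 0.14 (adjusted p = 0.00166) in RNAi-MARS. No 4 h library of JAZ3 overlapped the 0 h libraries of its genotype.

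JAZ9, the most abundant member, is AT1G70700 (chr1:26654529-26657350, plus strand). It was at 97.7, 71.3 and 83.1 CPM in Col-0 at 0 h and at 88.8, 90.3 and 129.6 CPM at 4 h. These ranges overlapped, and the log2 fold change was 0.29 ± 0.19 (edgeR adjusted p = 0.257). In RNAi-MARS JAZ9 was at 78.4, 47.9 and 61.9 CPM at 0 h and at 135.4, 137.1 and 116.8 CPM at 4 h. There all 4 h libraries were above all 0 h libraries, and the log2 fold change was 1.05 ± 0.20 (edgeR adjusted p = 0.0014). JAZ4, the member closest to JAZ9 and JAZ3 in the family, is AT1G48500 (chr1:17931390-17934662, plus strand). It was at 1.65, 3.71 and 1.69 CPM in Col-0 at 0 h and at 2.28, 1.51 and 1.55 CPM at 4 h. In RNAi-MARS it was at 2.94, 1.97 and 2.31 CPM at 0 h and at 1.65, 1.98 and 2.66 CPM at 4 h. The times overlapped in both genotypes. JAZ4 was not called in either genotype, with log2 fold changes of -0.40 ± 0.34 (edgeR adjusted p = 0.383) and -0.21 ± 0.34 (adjusted p = 0.642) and 95% intervals of -1.14 to 0.35 and -0.95 to 0.52.

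JAZ7 and JAZ8 differ from most members in a Jas motif that binds COI1 poorly, and both carry an EAR motif, with which they recruit co-repressors directly. JAZ7 is AT2G34600 (chr2:14573030-14573952, plus strand). JAZ7 was at 1.296, 1.04 and 1.25 CPM in Col-0 at 0 h and at 1.73, 1.77 and 2.17 CPM at 4 h. The 4 h libraries were all higher, but the log2 fold change of 0.66 ± 0.44 did not pass the threshold (edgeR adjusted p = 0.259). In RNAi-MARS JAZ7 was spread from 0.31 to 1.96 CPM at 0 h (1.96, 0.31 and 0.72) and lay close together at 4 h, at 2.65, 2.695 and 2.61 CPM. That rise had a log2 fold change of 1.39 ± 0.44 (edgeR adjusted p = 0.0241). It was 2.27 without library A of RNAi-MARS at 0 h. It was no longer called without library C of RNAi-MARS at 0 h (1.18, adjusted p = 0.0969) or without library B of RNAi-MARS at 4 h (1.40, adjusted p = 0.0501).

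JAZ8, AT1G30135 (chr1:10596352-10597341, plus strand), was near the limit of detection in all groups but RNAi-MARS at 4 h. Its counts were 2, 4 and 6 in Col-0 at 0 h, 4, 1 and 11 in Col-0 at 4 h, 3, 3 and 3 in RNAi-MARS at 0 h, and 21, 40 and 19 in RNAi-MARS at 4 h. As levels, the RNAi-MARS libraries at 4 h were at 0.72, 0.92 and 0.92 CPM, and all other libraries at 0.49 CPM or less. From the summed counts, 80 against 9, the level in RNAi-MARS was 7.70-fold higher at 4 h than at 0 h, with an exact 95% interval of 3.86 to 17.4 that covers counting error alone. The fitted log2 fold change was 2.86 ± 0.57 (edgeR adjusted p = 0.00203), for a gene that entered the test through RNAi-MARS at 4 h. In Col-0 the log2 fold change was 0.62 ± 0.63 (edgeR adjusted p = 0.471), and it turned to -0.51 without library C of Col-0 at 4 h.

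JAZ10, known as a marker of jasmonate signalling in wounded leaves and for splice forms that resist degradation, is AT5G13220 (chr5:4218786-4221077, plus strand). It was at 1.84, 3.81 and 3.03 CPM in Col-0 at 0 h. At 4 h its Col-0 libraries were at 3.21, 4.05 and 15.8 CPM, so that library C stood apart and library A overlapped the 0 h libraries. The log2 fold change in Col-0 was 1.39 ± 0.54 (edgeR adjusted p = 0.0617). It was 0.30 without library C at 4 h (adjusted p = 0.45), and JAZ10 was called without library A at 4 h (1.77, adjusted p = 0.0174), without library B at 4 h (1.69, adjusted p = 0.0374) and with DESeq2 (adjusted p = 0.0142). In RNAi-MARS JAZ10 was at 2.82, 2.65 and 2.65 CPM at 0 h and at 14.3, 17.8 and 10.6 CPM at 4 h. There the times were far apart, with a log2 fold change of 2.40 ± 0.54 (edgeR adjusted p = 0.00515). JAZ10 overlaps AT5G02045 on the opposite strand over 100 exon bases, and the strand setting of the counting was not given in the sources used here, so reads of that stretch are uncertain. No other member overlaps another gene.

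**Figure D3:**
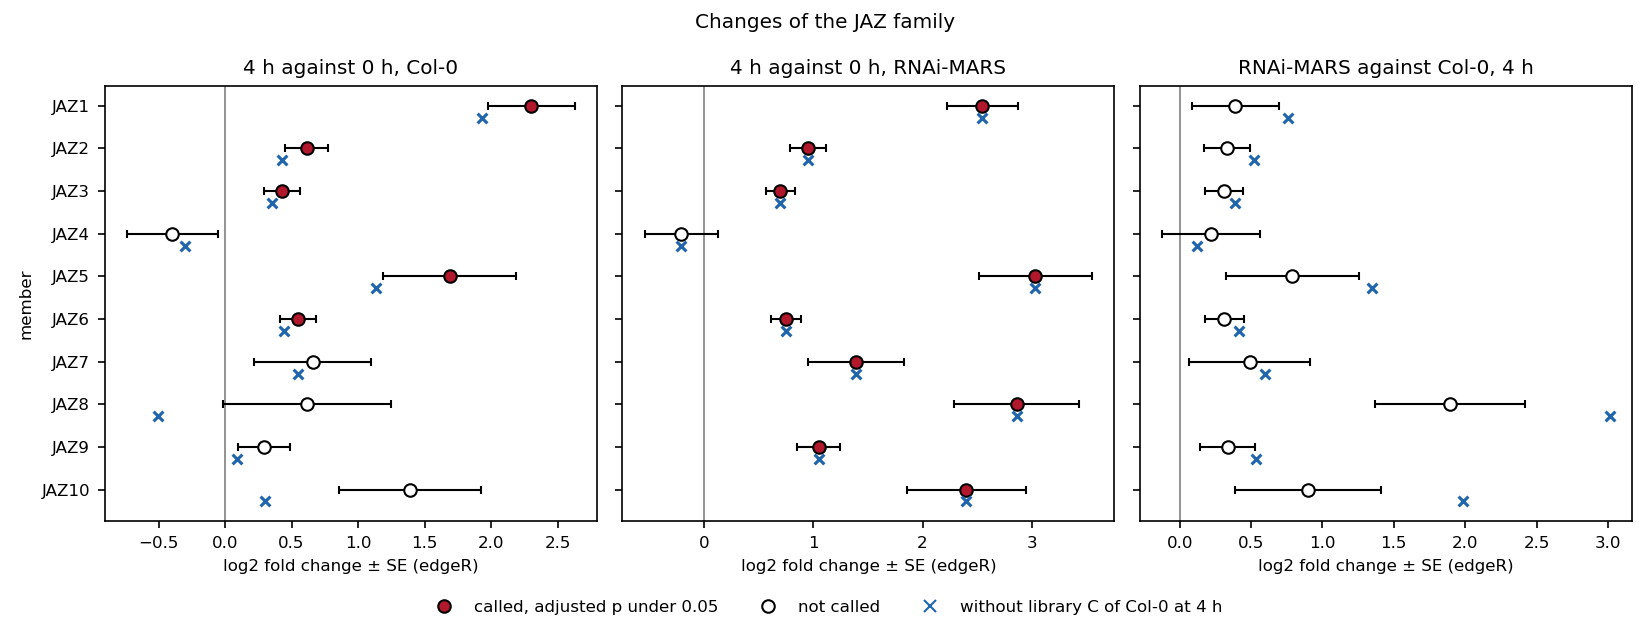
Log2 fold change ± SE (horizontal axes, edgeR, each panel with its own scale) of each JAZ gene for 4 h against 0 h in Col-0, for 4 h against 0 h in RNAi-MARS, and for RNAi-MARS against Col-0 at 4 h, with filled points for called members. Crosses give the value without library C of Col-0 at 4 h, which moves JAZ10 in Col-0 from 1.39 to 0.30 and JAZ8 from 0.62 to -0.51.

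In Col-0 the members called changed with each of the 6 Col-0 libraries left out in turn. JAZ5 was lost without library A at 0 h (edgeR adjusted p = 0.0544), JAZ3 without library B at 0 h (adjusted p = 0.0859), and JAZ10 was gained without library A or B at 4 h. The count fell furthest, to 3, without library C of either time. Library C at 4 h was the highest of its group for 9 of 10 members, JAZ4 being the exception, while 37.1% of all tested features were highest there. Without this library 3 members rose (JAZ1, JAZ2 and JAZ6; 17.7% of all features were then called higher), and JAZ3 (adjusted p = 0.0908) and JAZ5 (adjusted p = 0.0864) were lost. Without library C of Col-0 at 0 h the same 3 members were called. The touch and early wounding genes (9 genes, all detected) summed to 445.3 CPM in library C at 4 h and to 166.2 and 169.5 CPM in the other two libraries of the group. The jasmonate breakdown genes (10 genes) summed to 493.7 CPM there and to 176.8 and 290.6 CPM in the other two. The part of these in the JAZ levels was not tested. In RNAi-MARS, library A was the highest for 9 members at 0 h (37.0% of tested features) and library B the lowest for 9 (33.7%). At 4 h library B was the highest for 9 (34.3%). The touch and early wounding genes summed to 318.3, 427.7 and 426.0 CPM in RNAi-MARS libraries A, B and C at 0 h. At 4 h they summed to 173.2, 218.0 and 284.3 CPM. The breakdown genes summed to 71.05, 66.22 and 59.93 CPM at 0 h and to 586.1, 589.0 and 494.6 CPM at 4 h. The part of these sums was not tested either. The RNAi-MARS count of 9 was 8 or 9 in every fit that left out 1 library.

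**Figure D4:**
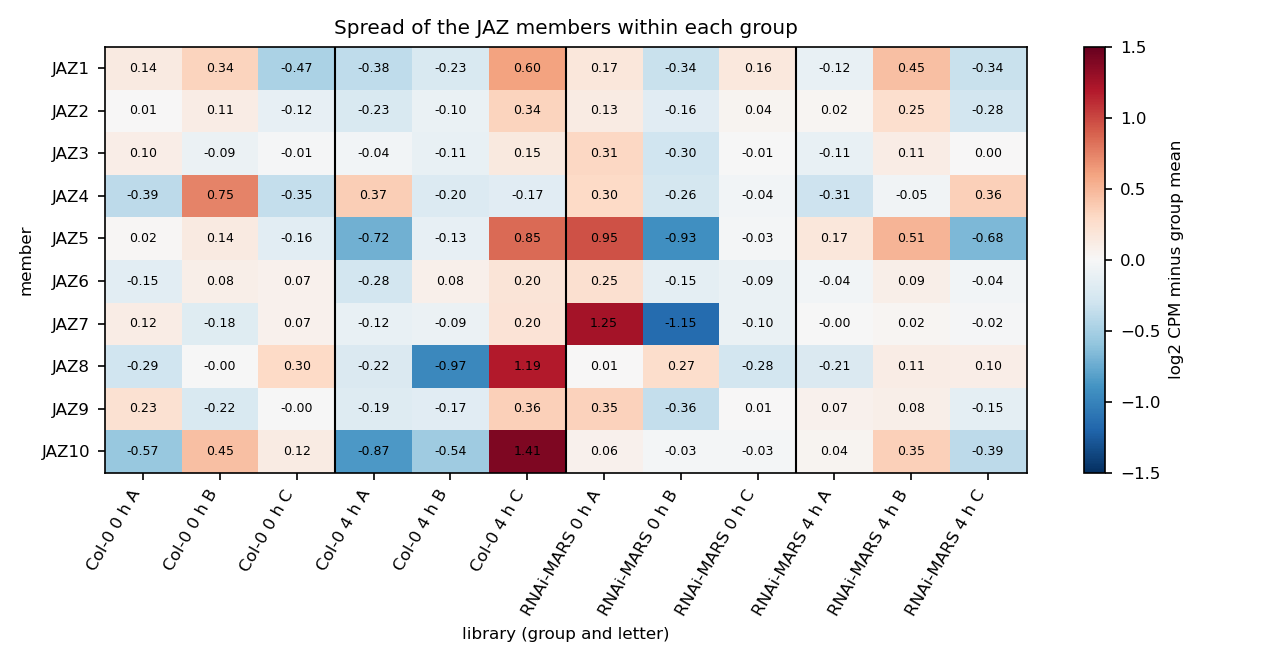
Deviation of log2 CPM from the group mean (colour and printed values) for each JAZ gene (rows) in the 12 libraries (columns, black lines between groups). Library C of Col-0 at 4 h is above its group mean for all members but JAZ4, by up to 1.41 for JAZ10, and the deviations of JAZ4 run apart from those of the other members.

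The members also varied together from library to library. Over the 12 libraries, Pearson's r of log2 CPM between members was 0.58 to 0.97 for the 36 pairs without JAZ4 and -0.35 to -0.08 for the 9 pairs with it. With the group means taken out, the median r over all 45 pairs was 0.53, and 40 pairs were positive. The range was then wide, 0.02 to 0.94 for the 36 pairs without JAZ4 and -0.25 to 0.19 for the 9 pairs with it. Pairs of other genes were not looked at in this way. The pairs share libraries and the 4 groups, so these values are descriptions.

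RNAi-MARS did not differ from Col-0 by a called member at either time. At 0 h, 0 of 10 members were called (0.0890% of all features), with log2 fold changes for RNAi-MARS against Col-0 between -0.55 (JAZ5) and 0.14 (JAZ1); 1 member, JAZ9, came near an unadjusted p of 0.05 (-0.42 ± 0.20, unadjusted p = 0.0542, edgeR adjusted p = 0.996). None was under 0.05, against 973 of 22465 features, and DESeq2 and limma-voom called 0 members too. At 4 h, 0 of 10 members were called (0.0890% of all features) by edgeR, DESeq2 or limma-voom. An unadjusted p under 0.05 in edgeR was reached by 3 members, JAZ3, JAZ6 and JAZ8, and by 1981 of 22465 features. JAZ8 was admitted to the test by RNAi-MARS at 4 h, so it is no support here or in the counts and median that follow. All 10 log2 fold changes were positive at 4 h, from 0.22 (JAZ4) to 1.89 (JAZ8), with a median of 0.36 against -0.0063 over all features, and stayed positive in every alternative run. As the members varied together over the same libraries, these signs are not separate observations. For JAZ3, JAZ6, JAZ7 and JAZ8, 4 of 10 members, every RNAi-MARS library at 4 h was above every Col-0 library, as for 5.92% of all features. With JAZ8 set aside, these were JAZ3, JAZ6 and JAZ7.

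The fitted genotype difference at 4 h was largest for JAZ8, the member tested only because of RNAi-MARS at 4 h, so its values are given as a description. The summed counts of 80 and 16 gave a level 3.80-fold higher in RNAi-MARS, with an exact 95% counting interval of 2.20 to 6.96. In the edgeR fit, which includes the spread between libraries, the log2 fold change was 1.89 ± 0.53 with an unadjusted p of 0.00392 and an adjusted p of 0.476. JAZ6 (0.31 ± 0.13, edgeR adjusted p = 0.547) and JAZ3 (0.31 ± 0.13, adjusted p = 0.555) lay far closer to 0. The largest of these values again depended on library C of Col-0 at 4 h. Without it JAZ8 (3.01 ± 0.50, edgeR adjusted p = 0.0435) and JAZ10 (1.98 ± 0.29, adjusted p = 0.0271) were called higher in RNAi-MARS, while 0.132% of all features were called higher. Leaving out any other library gave 0 called members.

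Over both times together, an exact 2-sided permutation test of the mean genotype difference in log2 CPM, with 400 assignments of the genotype labels within each time, gave no p under 0.05 for any of the 10 members. The smallest was 0.06 for JAZ6, with a mean difference of 0.22 in favour of RNAi-MARS and an adjusted p of 0.467 over the 10 tests. JAZ8 had a mean difference of 0.87 (exact p = 0.11, adjusted p = 0.467). Its difference was -0.16 at 0 h and 1.91 at 4 h. With 400 assignments the smallest p possible was 0.005.

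The difference between the responses of the genotypes, tested as an interaction, passed the threshold for 0 of 10 members and 0.00% of all features. Of the 22465 features, 1076 had an unadjusted p under 0.05, DESeq2 called 4 features and limma-voom 0. All 10 members had a larger fitted log2 fold change in RNAi-MARS than in Col-0, by 0.19 (JAZ4) to 2.25 (JAZ8), with a median of 0.53 against -0.011 over all features. JAZ8 is no support in this count or median. The members share the same libraries and varied together, so their signs are not separate observations. JAZ9 (0.75 ± 0.28, unadjusted p = 0.0188, 95% interval 0.15 to 1.36) had an edgeR adjusted p of 0.946. JAZ8 (2.25 ± 0.88, unadjusted p = 0.0264) had the same adjusted p in the edgeR fit, and its value is again that of a gene admitted by the group where it is high. The other 8 members had an unadjusted p above 0.05. For JAZ1 the difference was 0.25 ± 0.44, with a 95% interval of -0.73 to 1.22, and for JAZ5 1.34 ± 0.71, with an interval of -0.22 to 2.90. The sign of the difference turned for JAZ1 (-0.0024) and JAZ4 (-0.31) when single libraries were left out. Without library C of Col-0 at 4 h the difference was 3.37 for JAZ8 (edgeR adjusted p = 0.328) and 2.099 for JAZ10 (1.01 with all libraries, adjusted p = 0.267 without), and 0 members were called.

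The other TIFY proteins, which share the TIFY domain with the JAZ repressors, moved in both directions. Of 8 tested, 3 rose and 3 fell in Col-0, and 3 rose and 2 fell in RNAi-MARS. Over all features, set beside this list and those below, 20.7% were called higher and 19.3% lower in Col-0, and 21.6% and 21.0% in RNAi-MARS. JAZ11 and JAZ12, 2 further JAZ proteins, rose in both: JAZ11 from 10.8 to 22.9 CPM in Col-0 (log2 fold change 1.08 ± 0.11, edgeR adjusted p = 2.05e-05) and from 10.9 to 26.1 CPM in RNAi-MARS (1.26 ± 0.11, adjusted p = 6.14e-06). JAZ12 rose from 56.4 to 96.3 CPM in Col-0 and from 56.1 to 102.5 CPM in RNAi-MARS (0.77 ± 0.08 and 0.87 ± 0.08). PPD1, a regulator of leaf growth in the same family, fell by 0.76 ± 0.14 in Col-0 and by 0.55 ± 0.14 in RNAi-MARS on the log2 scale. Of 4 partners of the JAZ proteins, TPR1 (0.60 ± 0.09 in Col-0, 0.40 ± 0.09 in RNAi-MARS) and NINJA (0.39 ± 0.08 and 0.45 ± 0.08) rose in both genotypes, and COI1 and TPL fell in both. COI1 went from 49.7 to 38.1 CPM in Col-0 (edgeR adjusted p = 0.00522), and TPL from 220.4 to 153.2 CPM in RNAi-MARS (adjusted p = 0.00403).

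Of 7 transcription factors bound by JAZ proteins, 2 rose and 1 fell in Col-0, and 3 rose in RNAi-MARS. MYC2, the main activator of jasmonate responses, rose from 48.4 to 92.4 CPM in Col-0 (0.94 ± 0.25, edgeR adjusted p = 0.0119) and from 37.5 to 87.5 CPM in RNAi-MARS (1.22 ± 0.25, adjusted p = 0.00266). JAM3, a repressor of the same targets (0.55 ± 0.09 and 0.36 ± 0.09), rose in both genotypes. MYC4 fell by 0.63 ± 0.21 in Col-0 and had a log2 fold change of -0.46 ± 0.21 in RNAi-MARS (edgeR adjusted p = 0.0917). MYC3 rose by 0.25 ± 0.08 in RNAi-MARS and had 0.17 ± 0.08 in Col-0 (edgeR adjusted p = 0.122).

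Genes that make and break down jasmonate rose at 4 h in both genotypes. Of 15 synthesis genes, 11 rose in Col-0, 14 rose in RNAi-MARS and none fell. The 14 include DAD1, which was at 0 CPM at 0 h. DAD1 met the filter on low counts only through 4 h libraries, so its call is no support. LOX2, a lipoxygenase of the first step, rose from 91.0 to 1121 CPM in Col-0 (log2 fold change 3.62 ± 0.53, edgeR adjusted p = 0.000432) and from 84.3 to 987.5 CPM in RNAi-MARS (3.55 ± 0.53, adjusted p = 0.000429). AOC2, an allene oxide cyclase, rose from 26.2 to 274.8 CPM and from 17.3 to 313.3 CPM, and LOX3 from 4.55 to 26.7 CPM and from 4.62 to 53.3 CPM. AOC2 can share reads with its near-identical copies, so its own value is uncertain. Of 9 tested breakdown genes, 7 rose in Col-0, and all 9 did in RNAi-MARS. CYP94B3, which hydroxylates jasmonoyl-isoleucine, rose from 1.04 to 32.6 CPM in Col-0 (4.998 ± 0.51) and from 0.79 to 56.6 CPM in RNAi-MARS (6.11 ± 0.53). ST2A, a sulfotransferase of hydroxyjasmonate (4.32 ± 0.49 in Col-0, 4.87 ± 0.49 in RNAi-MARS), and JRG21 (AT3G55970), an oxygenase (4.27 ± 0.81 and 5.27 ± 0.79), rose in both genotypes. AT2G38240, annotated as an oxygenase, had 3 counts over the Col-0 libraries at 0 h and 890 at 4 h, a ratio of levels of 339.1 with an exact 95% counting interval of 115.7 to 1647. In RNAi-MARS it had 10 and 4475 counts, a ratio of 387.6 (210.6 to 808.8). These intervals cover counting error alone. In the edgeR fit, which includes the spread between libraries, the log2 fold change was 8.31 ± 1.51 in Col-0 and 8.59 ± 1.26 in RNAi-MARS. AT2G38240 met the filter on low counts because of its 4 h libraries, so its calls in the counts above are no support.

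Of 11 tested jasmonate response genes, 5 rose in Col-0, 8 rose in RNAi-MARS and none fell. THI2.1, counted in both genotypes, averaged 0 CPM in Col-0 and 0.03 CPM in RNAi-MARS at 0 h. It met the filter on low counts only through 4 h libraries, so its calls are no support. VSP2, a vegetative storage protein induced by jasmonate, rose from 44.4 to 630.2 CPM in Col-0 (3.83 ± 0.83, edgeR adjusted p = 0.00463) and from 36.2 to 960.4 CPM in RNAi-MARS (4.73 ± 0.86, adjusted p = 0.00163). NAC019, a transcription factor that ABA is also known to induce, rose from 0.90 to 49.8 CPM and from 0.69 to 50.7 CPM. NAC055 (NAC3 in RefSeq) rose from 2.55 to 9.56 CPM in Col-0 and from 3.14 to 14.8 CPM in RNAi-MARS. TAT3, a tyrosine aminotransferase, rose from 1.70 to 17.2 CPM in RNAi-MARS and was at 1.93 and 11.8 CPM in Col-0 (edgeR adjusted p = 0.0854). Of 9 touch and early wounding genes, 2 rose in Col-0 (WRKY53 and ZAT12), and in RNAi-MARS 1 rose (ZAT12) and 2 fell (XTH22 and CML24). These counts lay near or below the shares over all features, 20.7% higher in Col-0 and 21.6% higher and 21.0% lower in RNAi-MARS. Of 10 circadian clock genes, 6 rose and 2 fell in Col-0, and 7 rose and 2 fell in RNAi-MARS. LHY, which peaks near dawn, went from 412.8 to 11.6 CPM in Col-0 and from 400.3 to 19.3 CPM in RNAi-MARS. PRR5, a daytime clock gene, went from 0.69 to 27.9 CPM and from 0.51 to 27.7 CPM. The clock genes therefore changed, in both directions, over the same interval as the JAZ genes, and their part in the JAZ changes was not tested. In the genotype comparisons and the interaction, 0 genes of any of these lists were called.

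**Figure D5:**
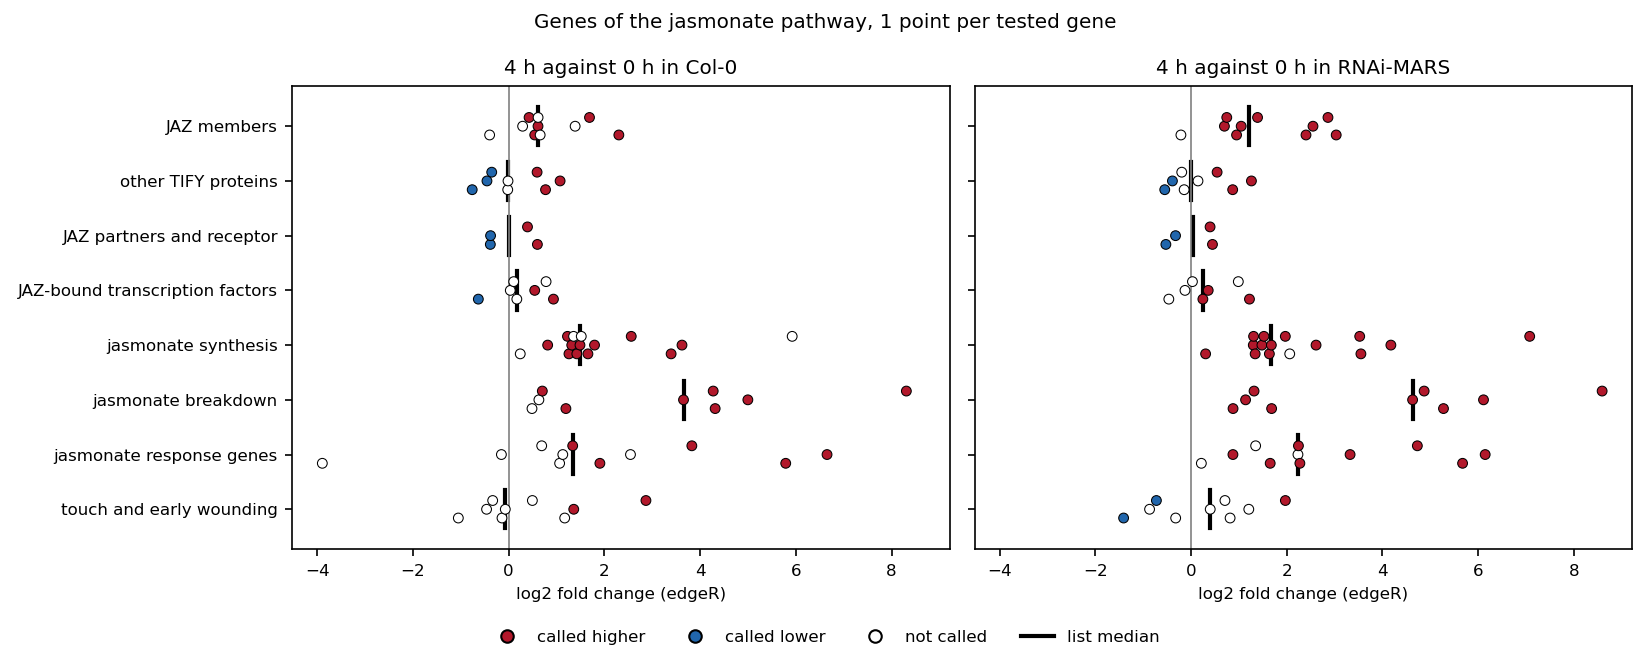
Log2 fold change at 4 h against 0 h (horizontal axes, edgeR) in Col-0 and RNAi-MARS for the JAZ genes and 7 lists of related genes, 1 point per tested gene, with red for called higher, blue for called lower and black bars for list medians. The breakdown genes, AT2G38240 included, have medians of 3.65 and 4.63, and the JAZ members, JAZ8 included, 0.62 and 1.22. The partner and TIFY lists lie on both sides of 0.

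For each member, the nuclear gene outside the family with the most similar pattern was the one with the highest Pearson's r of log2 CPM over the 12 libraries. For JAZ1 this was SCL13, a GRAS-family gene (r = 0.992), whose means in Col-0 were 13.3 CPM at 0 h and 38.8 CPM at 4 h. For JAZ2 it was ECT4 (r = 0.98), for JAZ3 AT1G16040 (r = 0.972), for JAZ5 NEK5 (r = 0.98), for JAZ6 ILL6 (r = 0.974) and for JAZ9 AGL20 (r = 0.967). ILL6, an amidohydrolase of the jasmonate breakdown pathway, averaged 13.6 and 31.2 CPM in Col-0 and 14.1 and 45.0 CPM in RNAi-MARS. AGL20, the flowering gene also called SOC1, averaged 49.6 and 67.6 CPM in Col-0 and 37.7 and 85.1 CPM in RNAi-MARS. For JAZ7 the most similar gene was AT1G10800 (r = 0.944), for JAZ8 AT1G66500 (r = 0.945) and for JAZ10 DAD1 (r = 0.972), a lipase of jasmonate synthesis. DAD1 was listed at 0 CPM in all libraries at 0 h. At 4 h it averaged 0.28 CPM in Col-0 and 0.60 CPM in RNAi-MARS. JAZ4 had the weakest likeness, to AT3G50200 (r = 0.788). The group means of AT1G10800 (0.47 to 0.69 CPM) and AT3G50200 (0.22 to 0.55 CPM) were low too. The r values with these genes and with DAD1 therefore rest on few counts. JAZ8 itself had 1 to 11 counts in every library outside RNAi-MARS at 4 h, so its r rests on few counts too. The libraries share the 4 groups, so any gene that follows the same groups scores high.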

How the data were processed

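The authors deposited estimated counts of reads per feature for each of 12 libraries, without normalization. Reads were trimmed and aligned to TAIR10 with tools listed in the submitters' processing notes, Subread 1.6.5 (featureCounts), STAR 2.7.2a and Trimmomatic 0.36. How strand and multi-mapped reads were handled was not given in the sources used here. In each library 5.31% to 7.60% of features held fractional values; JAZ counts were whole except JAZ6 in 2 libraries. All 37898 nuclear identifiers matched RefSeq's TAIR10.1 annotation.

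Rounded counts of all 12 libraries were fitted together in edgeR 4.0.16 (R 4.3.3) and tested by its quasi-likelihood F test (1 coefficient per group, TMM, filterByExpr at a minimum count of 10, robust), adjusted over 22465 features. All 10 members passed the filter, JAZ8 through 3 libraries of RNAi-MARS at 4 h and 1 of Col-0 at 4 h. CPM uses TMM library sizes, and SE is the absolute log2 fold change over the square root of F. Log2 CPM in permutations and correlations has a prior count of 2. DESeq2 1.42.0, limma-voom 3.58.1, other factors and filters, and leave-one-out fits were alternatives. The script was tested on simulated data. The members and lists were chosen with earlier results of these data known. Named genes were all members, the gene most like each, and, per list and comparison, up to 3 called genes with the largest absolute log2 fold change and a mean of at least 1 CPM. Proteins were not used here, and the promoter of 1 member is not reported here.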

Additional observations from a re-analysis of the deposited data

How the results depend on the processing

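Of 1033 member log2 fold changes under alternatives, 997 kept their direction and side of the threshold, 11 lost the call, 6 gained it and 19 changed sign. The count of members called in Col-0 was 3 to 6 when single libraries were left out, 6 with DESeq2 (JAZ10 added) and with only the groups compared fitted (JAZ7 added), and 4 with limma-voom (JAZ5 lost) and with upper quartile factors (JAZ3 lost). In RNAi-MARS it was 8 to 9 when single libraries were left out, 8 under the stricter filter, which dropped JAZ8, and 8 with only the groups compared (JAZ7 lost). For the genotype difference the count was 0 to 0 at 0 h and 0 to 2 at 4 h, and for the interaction 0 to 0. The genotype difference of JAZ2 at 0 h, -0.0032, was 0.00048 with limma-voom, 0.015 with upper quartile factors and 0.00053 without a filter; the cause was not tested. When single libraries were left out, genotype differences at 0 h ranged from -0.063 to 0.33 for JAZ1, -0.067 to 0.073 for JAZ2, -0.13 to 0.17 for JAZ3, -0.16 to 0.53 for JAZ4, -0.021 to 0.19 for JAZ6, -1.12 to 0.15 for JAZ7 and -0.34 to 0.13 for JAZ10. The Col-0 change ranged from -0.62 to 0.10 for JAZ4 and -0.51 to 1.02 for JAZ8, and the interaction from -0.0024 to 0.61 for JAZ1 and -0.31 to 0.42 for JAZ4. Mean genotype differences over both times ranged from -0.19 to 0.28 for JAZ5, -0.35 to 0.25 for JAZ7 and -0.13 to 0.048 for JAZ9. Whether the library letters pair the samples was not settled. Same-letter deviations between groups correlated at -0.30 to 0.40, and different-letter deviations were not compared. With the letter as a replicate block, 5 members were called in Col-0, 9 in RNAi-MARS and 0 in the other comparisons. Depth limits JAZ8 most, with 1 to 11 counts in 9 of 12 libraries.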
